A study of Macaca fascicularis with 605 samples.

Results

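The 9 genes described here are HPGD, TPH2, UCP2, PLCXD3, GREM1, ADCYAP1, NMU, CNIH3 and SPON2, out of 26018 genes in the deposited table. They were picked from these same cells because their levels were high in primordial germ cell-like cells (PGCLCs) made in culture and low in germ cells of the fetal gonad. Their levels in PGCLCs, gonadal cells and embryonic stem cells (ESCs) are therefore given as a description, with no test. Tests are given only between classes of embryo cells.

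Primordial germ cells (PGCs) are the founders of sperm and egg. They are set aside in the early post-implantation embryo, move to the forming gonad, and there switch on late germ cell genes such as DAZL and DDX4. BMP signals start their specification, and SOX17, TFAP2C and PRDM1 are the core factors that keep it in primates. The 9 genes are not known as one pathway. HPGD, TPH2 and UCP2 act in metabolism, ADCYAP1, NMU, GREM1 and SPON2 encode secreted proteins, CNIH3 is a membrane cargo adaptor, and PLCXD3 belongs to a family of phospholipase-related proteins.

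Single cells of cynomolgus monkey (Macaca fascicularis, 605 cells) were measured by SC3-seq, which reads the 3-prime ends of amplified cDNA of 1 cell. The 12 PGCLCs were BTAG-positive cells of the ESC line 656BTAG, sorted on day 8 of culture as floating aggregates with BMP4 at 200 ng/ml, Y27632 at 10 µM and the growth factors EGF at 50 ng/ml, LIF at 1000 U/ml and SCF at 100 ng/ml. For 6 of them the base medium was GMEM with 15% KSR, a serum replacement (GK15), and for the other 6 it was Advanced RPMI1640 with B27 (aRB27). The 28 ESCs were 8 cells of 656BTAG, kept with 20 ng/ml bFGF and IWR1 (2.5 nM per the labels), and 13 CMK6 and 7 CMK9 cells, kept on mouse feeder cells with 20% KSR, 4 ng/ml bFGF and LIF. All PGCLCs thus come from 1 line, with 1 culture named per medium, and what BTAG reports is not given in the sources used here. The 540 embryo cells cover embryonic day (E) 6 to 9, before implantation, and E13 to E20 after it. The 25 gonadal germ cells came from E36 (5 cells), E43 (6), E47 (1), E50 (5), E51 (7) and E55 (1). The labels name no animal or embryo for a cell, so cells of 1 day or medium may share a source and are not counted as replicates.

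Embryo cells carry no type in the labels. Cells with SOX17 and TFAP2C of at least 50 RPM (reads scaled to a fixed library total of mapped reads) and POU5F1 of at least 200 RPM were taken as PGC-like. This gate held 34 cells, 1 of E6 and 33 of E13 to E20, namely 8 of E13, 2 of E14, 15 of E16, 5 of E17 and 3 of E20. They are part of 384 embryo cells of E13 to E20. The rest were split into those with POU5F1 of at least 200 RPM (other POU5F1-high cells, 59.6% of the 384) and those below it (POU5F1-low cells, 31.8%). Clustering that left the 9 genes out put 23 of the 33 gated cells in a cluster of their own with PGC markers. A further 7 lay in a cluster led by primitive streak and mesoderm markers, and PRDM1 reached 50 RPM in 26 of the 33. The rest were an E14 cell and an E20 cell in extraembryonic mesenchyme-like clusters, and an E20 cell in a cluster led by TTR and APOB. Gonadal cells of E50 all had SOX17, TFAP2C, PRDM1 and the late germ cell gene DDX4 at 10 RPM or more. At E51 SOX17 and DDX4 reached it in 6 of 7 cells each, and 1 cell of E36 had PRDM1 at 2.44 RPM. At E50 DAZL averaged 190.8 RPM, against 0.477 RPM in aRB27 PGCLCs and 0.812 RPM in GK15 PGCLCs. Depth could be read in 604 cells and ran from 151084 to 12413065 reads with a median of 1980184. The cell with 151084 reads is an E51 gonadal cell, where 3 reads are worth 19.9 RPM. The code MS117 in a cell's name, whose meaning the labels do not give, marks 14 of the 33 PGC-like cells and none of the other POU5F1-high or POU5F1-low cells of E13 to E20. For that code, PGC-like state and code cannot be told apart.

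All 12 PGCLCs held several of the 9 genes at once. At a level of 10 RPM or more, a PGCLC had a median of 8 of them (5 to 9), a PGC-like embryo cell 3 (0 to 6), another POU5F1-high cell of E13 to E20 2 (0 to 4), a gonadal germ cell 2 (0 to 5) and an ESC 1 (0 to 2). The genes thus marked PGCLCs as a set, as the rule that chose them requires, while no PGC-like embryo cell held more than 6.

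**Figure D1:**
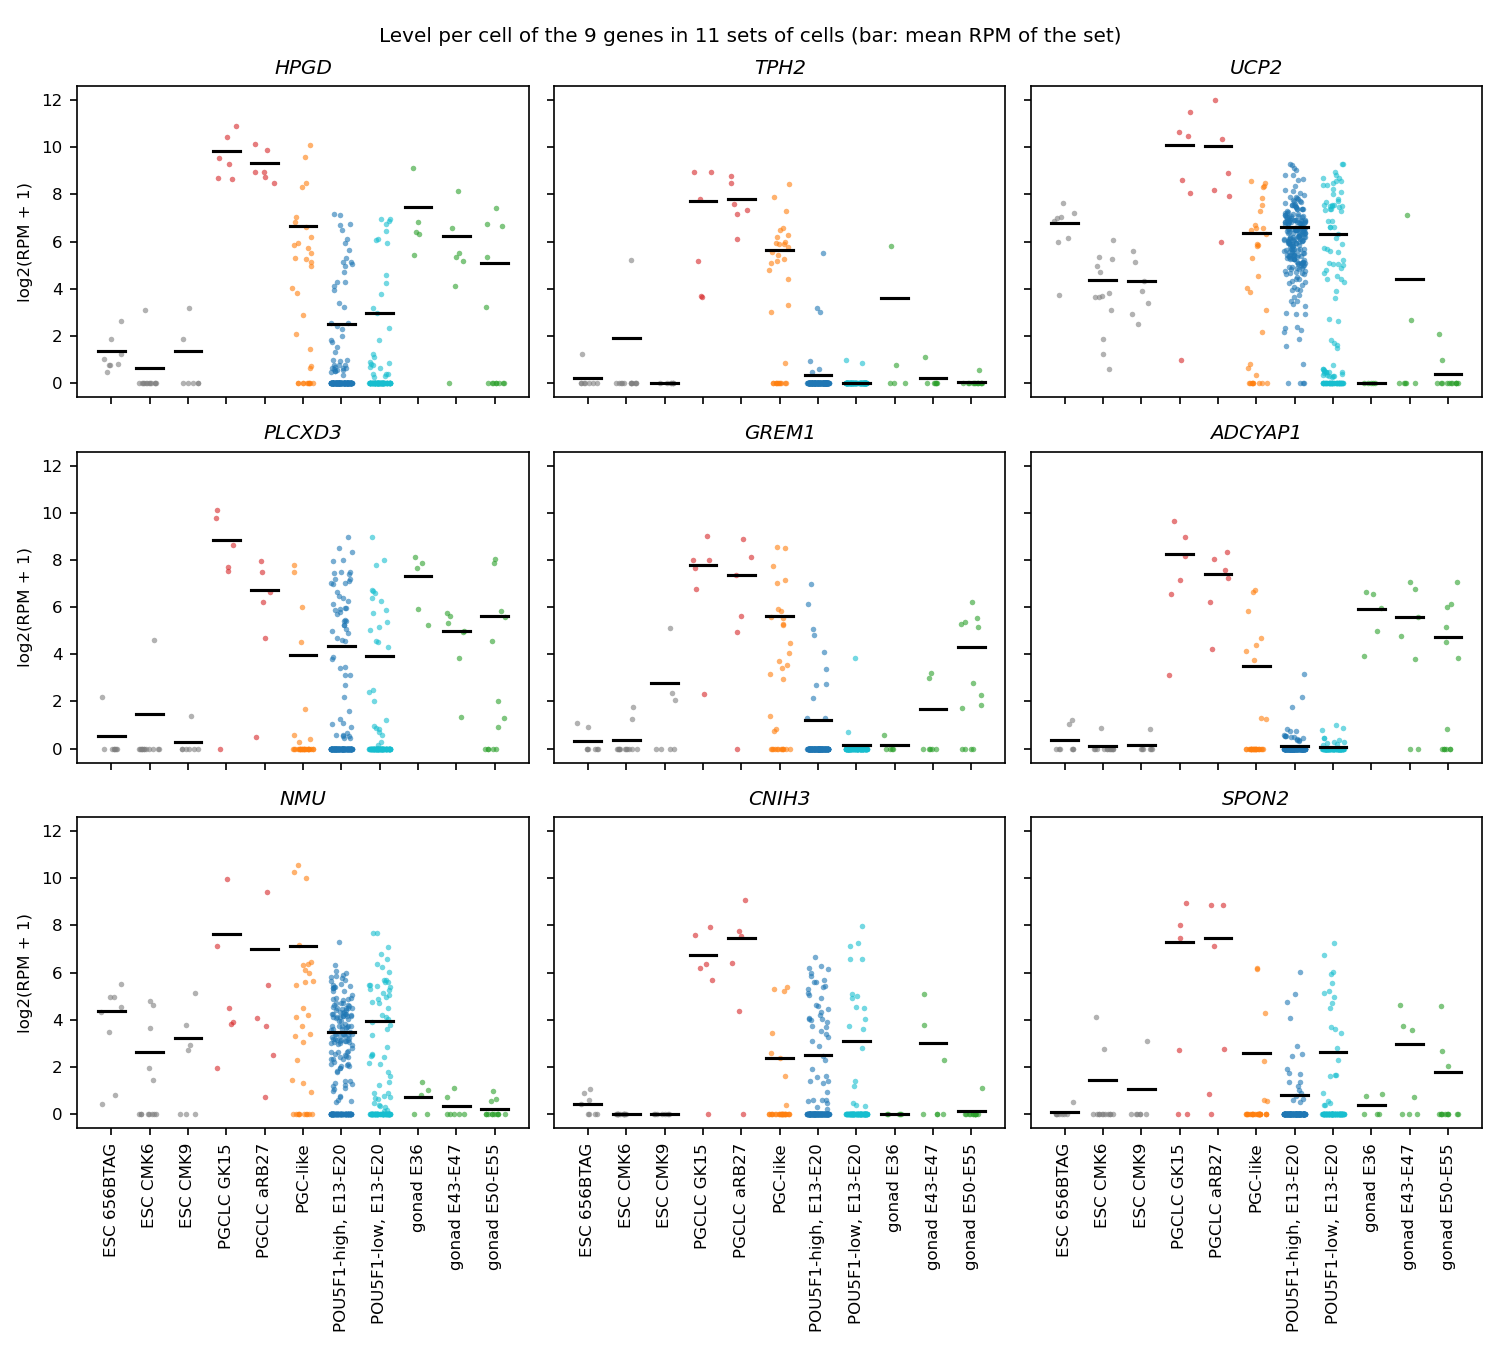
Each point is 1 cell, with log2(RPM + 1) on the vertical axis and 11 sets of cells on the horizontal axis, 1 panel per gene; the bar is the mean RPM of the set. PGCLCs hold high values for each gene, but few of them do for NMU and 6 of 12 for SPON2, and gonadal cells keep HPGD, PLCXD3 and ADCYAP1.

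HPGD encodes 15-hydroxyprostaglandin dehydrogenase, the enzyme that starts the breakdown of prostaglandins. It was the most even of the 9 in PGCLCs, with the lowest coefficient of variation over the 12 cells (0.618). GK15 PGCLCs ran from 404 to 1892 RPM with a median of 678, and aRB27 PGCLCs from 360 to 1133 RPM with a median of 493.4. The 2 media overlapped, and no PGCLC was below 360 RPM. No 656BTAG ESC was above 5.15 RPM.

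In the gonad HPGD was lower but not lost, which goes against calling it extinguished. The 5 cells of E36 held 42.8, 79.5, 84.4, 112.9 and 550 RPM. The highest of them lay above the lowest PGCLC, and the other 4 lay below it. At E43 the 6 cells held 0, 16.5, 35.5, 39.5, 44.2 and 95.01 RPM. At E50 3 of 5 cells and at E51 5 of 7 cells were at 0, while single cells of E47 and E55 held 282 and 99.9 RPM. The E47 cell also had high levels of gonadal somatic cell markers, given below under UCP2. The part of such RNA in its HPGD value was not tested. Over the 25 cells the mean was 72.4 ± 120 RPM (SD), which is 9.37% of the PGCLC mean, and 15 of the 25 had at least 10 RPM.

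TPH2, tryptophan hydroxylase 2, carries out the rate-limiting step of serotonin synthesis and is best known from serotonergic neurons. It reached 10 RPM in all 12 PGCLCs. GK15 PGCLCs fell into 3 cells at 11.5, 11.9 and 35.3 RPM and 3 at 219.4, 490 and 501 RPM. The 6 aRB27 PGCLCs lay between 68.8 and 433 RPM with a median of 175, inside the range of the other medium. Of 28 ESCs, 27 were under 2 RPM. The exception, at 35.7 RPM, was a CMK6 cell whose description names CMK9 and whose line is therefore uncertain.

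After PGCLCs, TPH2 was seen almost only in embryo PGC-like cells and was nearly absent from the gonad. Of 25 gonadal cells, 21 were at 0, 3 held 1.15 RPM or less and 1 cell of E36 held 54.97 RPM. The gonadal mean of 2.29 RPM was 1.05% of the PGCLC mean and came nearly whole from that cell.

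UCP2 encodes an uncoupling protein-family carrier of the inner mitochondrial membrane. Its PGCLC mean was the highest of the 9 and its spread wide. GK15 PGCLCs held 0.97, 262, 395, 1413, 1589 and 2890 RPM. The aRB27 PGCLCs held 62.8, 244, 286, 483, 1296 and 4083 RPM, so that 1 cell made most of that medium's mean of 1076 RPM. UCP2 was already present in the source line, where 656BTAG ESCs had 107.9 ± 57.8 RPM (SD over 8 cells), all of them at 12.4 RPM or more. The means of CMK6 and CMK9 ESCs were 19.8 and 19.3 RPM.

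In the gonad UCP2 was listed at 0 in 21 of 25 cells, and 24 cells were at 5.41 RPM or less. The E47 cell alone held 138.2 RPM. The summed level of 8 gonadal somatic cell markers was 1720 RPM in that cell, with 6 of the 8 at 10 RPM or more and TCF21 at 0, against 40.3 to 771 RPM in the 5 cells of E36, where no UCP2 was seen. At E43 and E51 that sum reached 2005 and 2063 RPM with UCP2 at 5.41 RPM or less. The part of such RNA in the E47 value was not tested.

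PLCXD3 had a higher median in GK15 than in aRB27. GK15 PGCLCs had a median of 301 RPM (0 to 1095) and aRB27 PGCLCs a median of 85.2 RPM (0.41 to 249). The ranges overlapped, and each medium had 1 cell under 1 RPM. In the gonad PLCXD3 persisted more than any other of the 9, at 23.3% of the PGCLC mean. The cells of E36 held 36.6, 60.3, 201.5, 229.3 and 274 RPM and averaged 160.3 ± 105.7 RPM (SD, n = 5 cells), above the aRB27 mean of 104.1 RPM and below the GK15 mean of 460 RPM. At E43 it ran from 1.5 to 53.1 RPM, at E50 from 0 to 22.7 RPM and at E51 from 0 to 263 RPM. In all, 16 of 25 gonadal cells had at least 10 RPM, so the label of an extinguished gene does not describe PLCXD3.

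GREM1 encodes gremlin 1, a secreted antagonist of BMP ligands. GK15 PGCLCs ran from 3.95 to 514 RPM with a median of 225.8, and aRB27 PGCLCs from 0 to 467 RPM with a median of 105.6. The media overlapped over most of their range. In the gonad GREM1 was near 0 at E36 (0 to 0.5 RPM in 5 cells) and present at E50, where the 5 cells held 2.64, 5.97, 34.5, 44.7 and 74.03 RPM. At E51 2 of 7 cells had over 10 RPM, at 37.4 and 39.7 RPM, the latter the cell of 151084 reads. The former had summed gonadal somatic markers of 2063 RPM, and the part of such RNA in its value was not tested. GREM1 thus had its highest gonadal mean at E50, where PLCXD3 and HPGD, both high at E36, were near 0 in most cells. With the cells of a day possibly from 1 animal, day and animal cannot be told apart.

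ADCYAP1 encodes PACAP, a neuropeptide that acts through receptors coupled to cyclic AMP. GK15 PGCLCs ran from 7.74 to 797 RPM with a median of 213.6, and aRB27 PGCLCs from 17.6 to 319 RPM with a median of 170. Gonadal cells again kept part of it. Those of E36 held 14.1, 30.7, 62.03, 92.96 and 99.4 RPM, all at 10 RPM or more. At E43 4 of 6 cells had at least 10 RPM and at E50 1 of 5. At E51 3 of 7 did so at 22.04, 69.7 and 132.4 RPM, and the cell of 151084 reads held 13.2 RPM, under its level of 3 reads. The gonadal mean of 38.5 RPM was 16.3% of the PGCLC mean.

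NMU encodes neuromedin U, a secreted peptide that acts on smooth muscle, feeding and immune cells. Its high PGCLC mean of 163.7 RPM rested on few cells. The 6 GK15 PGCLCs held 2.90, 13.3, 14.1, 21.6, 138.5 and 1014 RPM. The 6 aRB27 PGCLCs held 0.63, 4.68, 12.3, 15.9, 43.95 and 683 RPM. The median over the 12 was 15.0 RPM, below the median of 20.99 RPM in the 8 cells of 656BTAG ESCs, so a typical PGCLC held no more NMU than the line it came from. In the gonad NMU was the lowest of the 9, with no cell above 1.59 RPM.

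CNIH3, a cornichon protein that escorts AMPA-type glutamate receptors, and SPON2, a secreted matrix protein also called mindin, were each at 0 in some PGCLCs. CNIH3 ran from 0 to 240.96 RPM in GK15 and from 0 to 538 RPM in aRB27 PGCLCs, with 10 of 12 cells at 10 RPM or more. SPON2 was split, with 6 of 12 PGCLCs at 5.87 RPM or less and 6 between 137.3 and 492 RPM, 3 of each in each medium. In the gonad CNIH3 reached 10 RPM in 2 of 25 cells and SPON2 in 4 of 25, none above 33.4 RPM. The summed gonadal somatic markers of the SPON2 cells were 435, 694, 1561 and 2005 RPM, and those at 694 and 2005 RPM were the CNIH3 cells. The cells at 1720 and 2063 RPM held CNIH3 at 0 and SPON2 at 5.41 RPM or less. The part of somatic RNA in these values was not tested. ESCs of 656BTAG were at 1.10 RPM or less for both CNIH3 and SPON2.

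Within the 12 PGCLCs the 9 genes did not rise and fall as a block. Spearman correlations over these 12 cells, which share 2 cultures, ran from -0.60 for NMU with CNIH3 to 0.72 for HPGD with NMU and for UCP2 with ADCYAP1. In the 33 PGC-like embryo cells the range was from -0.44 for TPH2 with UCP2 to 0.49 for CNIH3 with SPON2. UCP2 with ADCYAP1 was at -0.28 there. In counts this sparse such values are a description of these cells only.

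**Figure D2:**
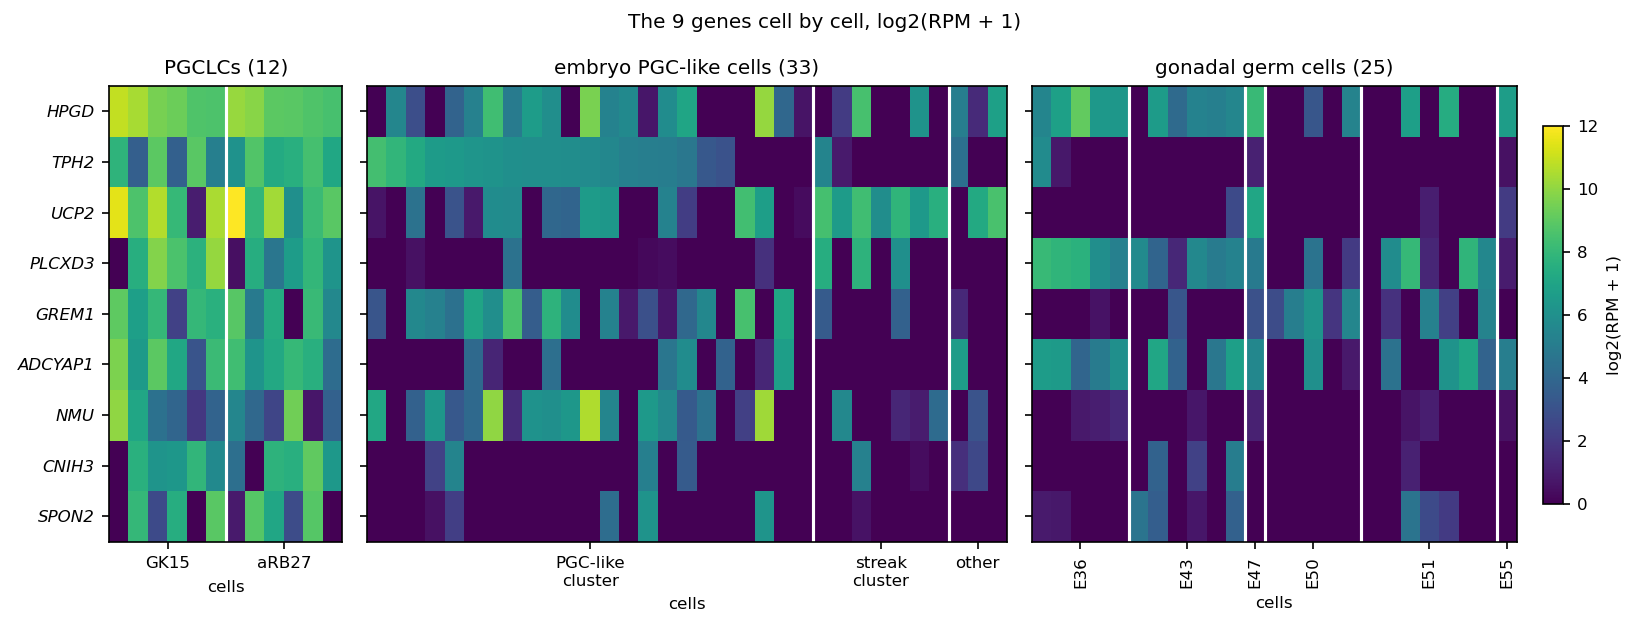
Colour gives log2(RPM + 1) of each gene (rows) in each cell (columns) for 12 PGCLCs ordered by HPGD within a medium, 33 embryo PGC-like cells ordered by TPH2 within a cluster, and 25 gonadal germ cells by day. PGC-like cells of the PGC-like cluster carry TPH2 and GREM1, those of the streak cluster UCP2, and gonadal cells HPGD, PLCXD3 and ADCYAP1.

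Embryo PGC-like cells were then compared with the other cells of the same days, a comparison that the choice of the 9 genes did not use. On E13, E16 and E17 the means of TPH2, GREM1 and HPGD were higher in PGC-like cells than in both other classes, and the test of these differences depended on a filter on low levels. Class means of E13, E16 and E17, the 3 days with at least 3 cells in every class, were fitted with limma on log2(mean RPM + 1) with day as a block, with p-values adjusted over all genes tested (Benjamini-Hochberg). Against other POU5F1-high cells 3 of the 7 genes that passed the low-level filter were called, all higher, where 6.05% of all 10262 genes tested were called (2.68% higher and 3.37% lower). Against POU5F1-low cells the same 3 of 7 were called higher, against 13.6% of all genes called (6.54% higher and 7.06% lower). TPH2, GREM1 and HPGD passed the filter only through the PGC-like class and so had to be higher to be tested, which makes the 3 of 7 and its direction no support. With no filter none of the 3 was called against other POU5F1-high cells, and TPH2 and GREM1 but not HPGD were called against POU5F1-low cells. UCP2, PLCXD3, NMU and SPON2 did not pass the test, and ADCYAP1 and CNIH3 did not pass the filter. Both comparisons share the PGC-like values. With E13 left out limma called 0 genes against other POU5F1-high cells (1484 at an unadjusted p under 0.05), and with E16 or E17 left out it called 1.79% and 1.45%.

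TPH2 averaged 74.6 RPM in PGC-like cells of E13 (lowest 0, median 21.8, highest 344.6, 8 cells), 41.7 RPM at E16 (0, 26.4 and 234.1, 15 cells) and 53.5 RPM at E17 (0, 59.3 and 89.9, 5 cells). The means of other POU5F1-high cells on those days were 0.02, 0.17 and 0 RPM, and did not overlap. With no filter the fitted log2 change was 5.72 ± 0.53 (SE, limma, adjusted p = 0.0621) against other POU5F1-high cells and 5.63 ± 0.53 (adjusted p = 0.0345) against POU5F1-low cells, sizes that depend on the pseudocount of 1. With the filter that TPH2 passed only where it is high, the adjusted p were 0.00827 and 0.00224. Counted by cell, 19 of 33 PGC-like cells (57.6%, exact 95% interval 39.2 to 74.5%) had at least 10 RPM. Among other POU5F1-high cells 1 did (0.437%), an E14 cell at 45.3 RPM, and among POU5F1-low cells 0, which allows a share of up to 2.98%. Intervals cover counting of cells only.

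TPH2 was higher in the PGC-like cells in 6 of the 8 pairings of cells with the same day and code that could be made, and lower in 0. The filtered call against other POU5F1-high cells was lost without the MS117 cells, which leaves 2 days (5.72, adjusted p = 0.0965), and without E13 (5.48, adjusted p = 0.116). Against POU5F1-low cells it held without the MS117 cells (adjusted p = 0.0268).

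GREM1 averaged 58.99 RPM at E13 (0, 7.28 and 364), 43.1 RPM at E16 (0, 0.79 and 370) and 74.4 RPM at E17 (0, 21.3 and 213.5). Other POU5F1-high cells averaged 4.53, 0.60 and 0.31 RPM. With no filter the change was 4.69 ± 0.65 (limma, adjusted p = 0.0737) against them and 5.76 ± 0.65 (adjusted p = 0.0391) against POU5F1-low cells. With the filter, passed again only through PGC-like cells, the adjusted p were 0.0129 and 0.00211. At 10 RPM or more it was found in 15 of 33 PGC-like cells (45.5%), in 5 other POU5F1-high cells (2.18%) and in 1 POU5F1-low cell (0.820%). The filtered call against other POU5F1-high cells was lost when any 1 of the 3 days was left out (adjusted p 0.0565 to 0.116), and GREM1 did not pass the filter without the MS117 cells. Within day and code it was higher in 6 of 8 pairings and lower in 1.

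HPGD averaged 277 RPM at E13 (0, 3.495 and 1084), 54.7 RPM at E16 (0, 30.5 and 318) and 22.4 RPM at E17 (0, 13.3 and 60.9). Other POU5F1-high cells averaged 9.67, 3.27 and 5.67 RPM. The means did not overlap between the classes, although at E13 5 of the 8 PGC-like cells were under 10 RPM. The E13 cell at 1084 RPM also had high levels of extraembryonic mesenchyme markers, given below under NMU. With no filter the change was 3.41 ± 0.78 (limma, adjusted p = 0.145) against other POU5F1-high cells and 4.15 ± 0.78 (adjusted p = 0.0855) against POU5F1-low cells, and neither was called. With the filter, passed only through PGC-like cells, the adjusted p were 0.0310 and 0.00821. The first was lost without the day block (adjusted p = 0.0815), without E13 (0.273), without E16 (0.128) and without the MS117 cells (0.0965). The second was lost without E13 (0.107). HPGD was above 10 RPM in 54.5% of PGC-like cells, 7.86% of other POU5F1-high cells and 9.02% of POU5F1-low cells.

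**Figure D3:**
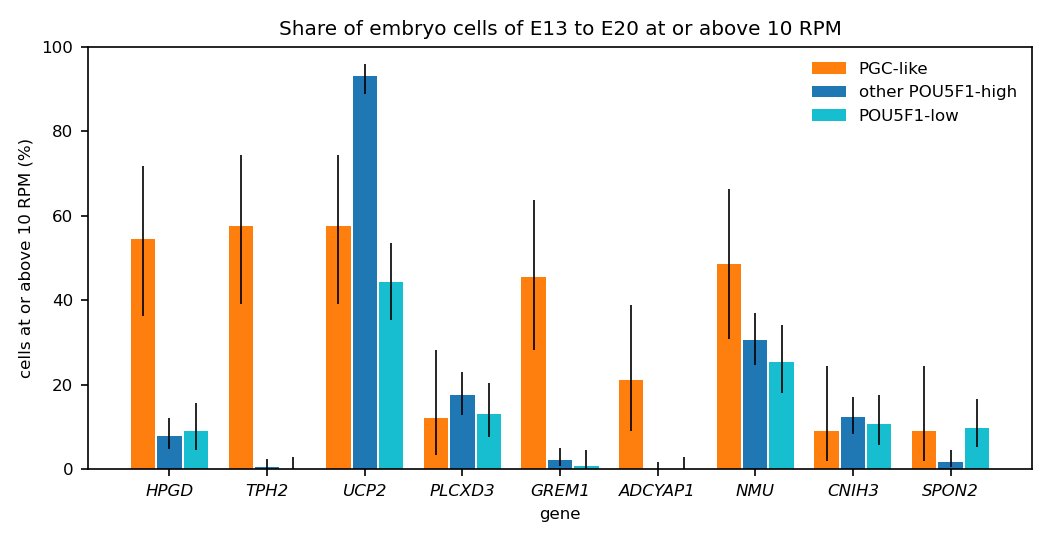
Bars give the percent of cells of E13 to E20 at or above 10 RPM for each gene in PGC-like, other POU5F1-high and POU5F1-low cells; lines are exact 95% binomial intervals. TPH2, GREM1, HPGD, NMU and ADCYAP1 stand highest in PGC-like cells, and UCP2 in other POU5F1-high cells.

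NMU was the only one of the 9 whose mean in embryo PGC-like cells came near that of PGCLCs, at 137.5 RPM or 83.99% of it. As in PGCLCs, few cells held it at very high levels. The 3 highest, at 1499, 1234 and 1042 RPM, exceeded every PGCLC, and all of them carried the code MS117 and also held HPGD at 767, 1084 and 318 RPM. The remaining 30 were far lower, with a median over all 33 of 9.38 RPM. The cell at 1234 RPM had a summed level of 9 extraembryonic mesenchyme markers of 3597 RPM. That sum was 162.3 and 126.5 RPM in the cells at 1499 and 1042 RPM, with a median of 131.3 RPM over the 33. The part of such RNA in the NMU and HPGD values of the 1234 RPM cell was not tested. NMU was also present elsewhere, at 10 RPM or more in 30.6% of other POU5F1-high cells against 48.5% of PGC-like cells. Its change of 3.09 ± 0.86 did not pass the test (limma, adjusted p = 0.0674), nor did the one against POU5F1-low cells (2.47 ± 0.86, adjusted p = 0.0895). With other processing NMU was called in 3 of 17 and 3 of 16 alternatives.

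ADCYAP1 could not be tested but was seen at 10 RPM or more in 7 of 33 PGC-like cells (21.2%, exact 95% interval 8.98 to 38.9%), 0 other POU5F1-high cells (up to 1.60%) and 0 POU5F1-low cells (up to 2.98%). By day these were 0 of 8 cells at E13, 0 of 2 at E14, 4 of 15 at E16, 2 of 5 at E17 and 1 of 3 at E20. That E20 cell, at 97.2 RPM, lay in an extraembryonic mesenchyme-like cluster and had PRDM1 at 33.1 RPM. The highest held 105.4 RPM, under the PGCLC median of 170 RPM.

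UCP2 was not a PGC-like gene in the embryo. It was at 10 RPM or more in 57.6% of PGC-like cells, 93.01% of other POU5F1-high cells and 44.3% of POU5F1-low cells, and its fitted difference of -0.39 ± 0.37 against other POU5F1-high cells did not pass the test (limma, adjusted p = 0.554). It divided the gated cells instead. The 23 in the PGC-like cluster averaged 35.7 RPM with a median of 3.52 and 8 cells at 0, whereas the 7 in the streak cluster averaged 190 RPM and ran from 57.7 to 357 RPM. The other 39 cells of that streak cluster averaged 152.2 RPM. TPH2 and GREM1 showed the opposite order, at 67.4 and 67.96 RPM in the PGC-like cluster and 6.13 and 3.13 RPM in the streak cluster.

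PLCXD3, CNIH3 and SPON2 were low in PGC-like cells, reaching 10 RPM in 4, 3 and 3 of 33. Their means of 14.7, 4.14 and 5.01 RPM were 5.22%, 2.96% and 3.004% of those in PGCLCs. For PLCXD3 the fitted difference against other POU5F1-high cells was -0.02 ± 1.09 (limma, adjusted p = 0.996), and for SPON2 it was 1.06 ± 1.10 (adjusted p = 0.598). Single cells were higher, with PLCXD3 at 218.1 and 179.9 RPM, and 1 PGC-like cell reached the PGCLC median for PLCXD3 and 1 for SPON2. PLCXD3 lay mostly in the streak cluster, where 7 gated cells averaged 65.8 RPM, against 1.10 RPM in the 23 of the PGC-like cluster. Most of that 65.8 RPM came from the cells at 218.1 and 179.9 RPM. Their summed levels of 10 endoderm markers were 695.8 and 1398 RPM, against a median of 61.2 RPM over PGC-like cells. Whether these are endoderm-like cells was not tested. Embryo and culture also differ in labels, day and code, which cannot be told apart here.

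**Figure D4:**
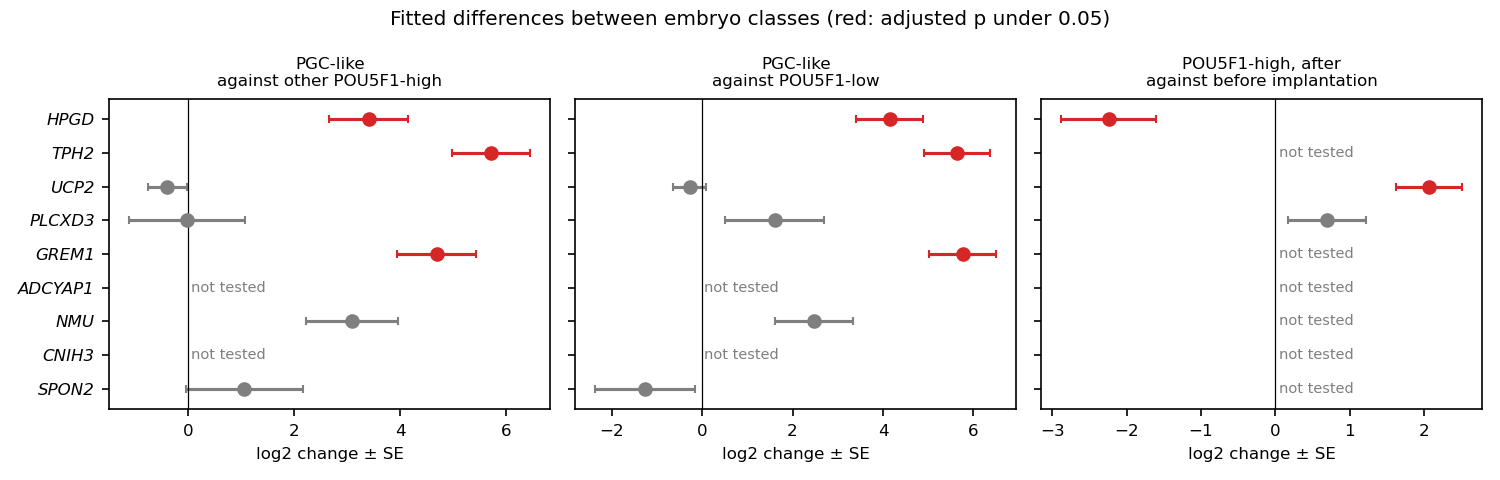
Points are fitted log2 changes on the log2(mean RPM + 1) scale with their standard errors for 3 comparisons of embryo classes; red marks an adjusted p under 0.05 and "not tested" a gene that did not pass the filter. TPH2, GREM1 and HPGD, which entered the first 2 comparisons only through PGC-like cells, are red in both, and UCP2 is higher after implantation.

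Before implantation the pattern was another. Among POU5F1-high cells, UCP2 averaged 7.56, 17.5, 39.3 and 36.3 RPM on E6, E7, E8 and E9 and 78.7, 69.3, 98.6 and 130.7 RPM on E13, E14, E16 and E17. No day overlapped between the 2 stages, and the change was 2.07 ± 0.44 (limma on 4 against 4 days, adjusted p = 0.00469). HPGD went the other way, at 12.1, 49.05, 18.3 and 14.9 RPM before and 9.67, 0.32, 3.27 and 5.67 RPM after, a fitted difference of -2.24 ± 0.63 (adjusted p = 0.0177). HPGD passed the filter only through the days before implantation, and the call was lost with no filter (adjusted p = 0.0766) and without E7 (0.0584). In this comparison 37.1% of all 9568 genes were called, with 17.9% higher and 19.2% lower, and 2 of the 3 members tested were called. PLCXD3 was the third (0.69 ± 0.53, adjusted p = 0.325). The cell types among POU5F1-high cells differ between the stages, with streak and mesoderm-like clusters seen only after implantation. UCP2 averaged 35.1 RPM in the epiblast-like cluster of E7 to E9 and 43.7, 79.7 and 92.5 RPM in those of E13 to E17. HPGD averaged 19.4 RPM in the first and 1.12, 0.325 and 12.3 RPM in the others. The part of cell makeup in either change was not tested.

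Other embryo lineages held single members of the group, here given by cluster as a description. PLCXD3 averaged 132.9 RPM in the 47 cells of an endoderm-like cluster of E7 to E9, with 78.7% at 10 RPM or more, above its aRB27 PGCLC mean. HPGD averaged 71.5 RPM in the 42 trophectoderm-like cells, with 83.3% at 10 RPM or more. UCP2 differed widely among clusters, with 164.8 RPM in the second streak and mesoderm-like cluster and 220.8 RPM in a cluster led by TTR and APOB that was left without a name, but 0.168, 9.04 and 11.4 RPM in the 3 extraembryonic mesenchyme-like clusters. NMU reached 28.9 RPM in an extraembryonic mesenchyme-like cluster, and TPH2 and GREM1 averaged at most 1.29 and 6.001 RPM over the ungated cells of any other cluster.

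Genes that act with the members were present or absent gene by gene. DDC, which turns the product of TPH2 into serotonin, was listed at 0 in all 12 PGCLCs and averaged 0.0936 RPM in PGC-like cells, while the ESC lines held 5.01 to 15.1 RPM. Cofactor genes of TPH2 were present, with PCBD1 at 118.8 RPM in GK15 and 110 RPM in aRB27 PGCLCs. Of the serotonin list, 7 of 20 genes were tested against other POU5F1-high cells, with TPH2, which entered only through PGC-like cells, called higher and none lower (median change 0.41, all genes -0.07). In that comparison 6.05% of all genes were called. Against POU5F1-low cells, where 13.6% of all genes were called, TPH2 and PTS were called higher and none lower.

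For HPGD the prostaglandin-forming enzymes PTGS1 and PTGS2 were at 0.282 RPM or less in both PGCLC media. ABCC4, a prostaglandin exporter, averaged 140 RPM in GK15 and 222 RPM in aRB27, and SLCO2A1, which takes prostaglandins into the cell for breakdown, 36.9 and 40.2 RPM, against 11.7 and 1.91 RPM in 656BTAG ESCs. SLCO2A1 had an SD of 84.8 and 75.3 RPM over 6 cells, so few cells carried it. Of 9 prostaglandin genes tested against other POU5F1-high cells 2 were called higher, HPGD, which entered in the same way, and the receptor PTGER3, and none lower (median change -0.60). PTGER3 was outside the rule for naming genes and is named because the count is small. In that comparison 6.05% of all genes were called, and without E13 neither HPGD nor PTGER3 was. Against POU5F1-low cells, where 13.6% of all genes were called, HPGD and PTGER3 were called higher. PTGIS, of the same list, was called lower there (-3.18 ± 0.73, limma, adjusted p = 0.0214). It averaged 4.37 RPM in PGC-like cells, under the level of the filter.

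**Figure D5:**
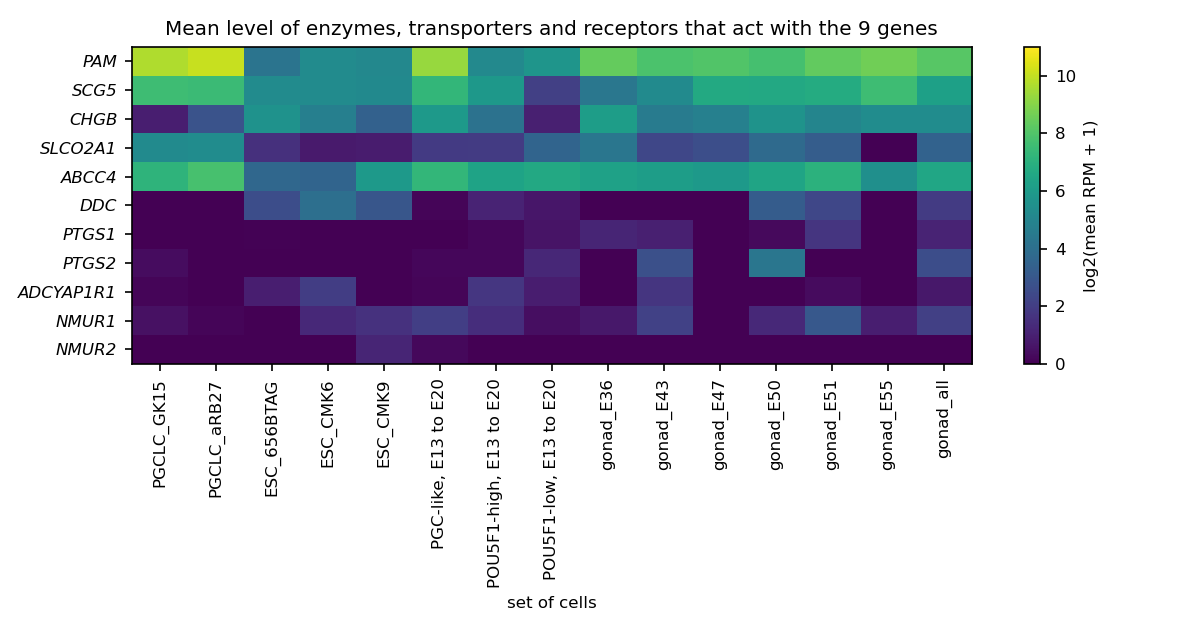
Colour gives log2(mean RPM + 1) of 11 genes of peptide, prostaglandin and serotonin handling (rows) in 15 sets of cells (columns). PAM is high in PGCLCs, PGC-like cells and gonadal cells, whereas DDC, PTGS1, PTGS2, ADCYAP1R1, NMUR1 and NMUR2 are at or near 0 in PGCLCs.

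PAM, the enzyme that adds the C-terminal amide that PACAP and neuromedin U carry in their mature form, followed the germ cell classes closely. It averaged 828 ± 482 RPM in GK15 and 1080 ± 352 RPM in aRB27 PGCLCs (SD, 6 cells each), against 17.6 to 38.002 RPM in the 3 ESC lines, and 284 RPM over gonadal cells. In the embryo test its mean was 743 ± 415 RPM (SD, n = 3 days) in PGC-like cells and 31.9 ± 11.6 RPM in other POU5F1-high cells, a change of 4.41 ± 0.46 (limma, adjusted p = 0.00628). The change against POU5F1-low cells was 3.99 ± 0.46 (adjusted p = 0.00144). The first was lost without E13 (adjusted p = 0.0765), and both were lost with no filter (0.0707 and 0.0526). PAM thus stayed on in the gonad where NMU did not. SCG5 and CHGB, which serve the secretory granule, were higher than in POU5F1-low cells (6.22 ± 0.56, adjusted p = 0.000550, and 4.65 ± 0.64, adjusted p = 0.00277), the second lost with no filter (adjusted p = 0.0536). CHGB was low in PGCLCs, at 0.897 and 5.98 RPM. Of 6 tested genes of the neuropeptide list 1 was called higher against other POU5F1-high cells and 3 against POU5F1-low cells, none lower, beside 6.05% and 13.6% of all genes. The receptors ADCYAP1R1, NMUR1, NMUR2, VIPR1 and VIPR2 were at 0.405 RPM or less in both PGCLC media.

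In the BMP list 18 of 20 genes were tested, with 2 called higher and 2 lower against other POU5F1-high cells (6.05% of all genes) and 3 higher and 4 lower against POU5F1-low cells (13.6% of all genes). GREM1, with the limit of the filter given above, is among the higher in both. ID3, a BMP target, was lower than in other POU5F1-high cells (143.9 against 395 RPM, -1.91 ± 0.46, limma, adjusted p = 0.0433). Without E13 it was not called, and its call with no filter, where few genes were called, was not looked up. ID1, another target, was higher than in POU5F1-low cells (286 against 64.3 RPM, 2.10 ± 0.24, adjusted p = 0.00144). The ligand gene BMP2 was lower than in POU5F1-low cells (3.78 against 180 RPM, -5.63 ± 0.98, adjusted p = 0.00748), and BMP4 was called lower as well. BMP4 averaged 7.03 RPM in PGC-like cells. BMP2 and BMP4 thus passed the filter of 10 RPM only with the help of other classes, so their direction is no support. Calls of ID1, BMP2 and BMP4 with no filter were not looked up.

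Among relatives of the other members, UCP1 and UCP3 were at 0.0800 RPM or less in both PGCLC media while SLC25A5, an ADP/ATP carrier of the same family as UCP2, averaged 986 and 922 RPM. SLC25A5 was higher in PGC-like than in other POU5F1-high cells (1104 against 510 RPM, 1.11 ± 0.22, limma, adjusted p = 0.0238). SLC25A5 was not called without E13, and UCP2 was not called in this comparison. Whether SLC25A5 kept its call with no filter, where few genes were called, was not looked up. CNIH1 and CNIH4 averaged 170.7 and 218.4 RPM in GK15 PGCLCs, and CNIH1 was called lower in PGC-like than in POU5F1-low cells. None of the 4 tested relatives of SPON2 and PLCXD3 was called in either comparison.

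Genes whose mean level was most like that of a member were sought over 27 sets of cells (PGCLC media, ESC lines, gonadal days and embryo classes by day) among 7351 genes, as Pearson correlations of log2(mean RPM + 1), which share depth and cell makeup. These sets include the PGCLC and gonadal values by which the members were picked. The genes named are the closest of the 7351, so the correlations are a description only. For TPH2 the closest was TMEM119 (r = 0.89), which held 96.7 and 93.2 RPM in the 2 PGCLC media, 21.1 RPM in PGC-like cells and 0.22 RPM in ESCs. PPP1R14C, a phosphatase inhibitor, came next for TPH2 (0.87) and first for GREM1 (0.89). For ADCYAP1 the closest 3 were SOSTDC1, another secreted BMP and WNT modulator (0.93), the germ cell gene NANOS3 (0.91) and PIK3R3 (0.91). HPGD was closest to ITM2B (0.88), NMU to YWHAQ (0.85), PLCXD3 to ARRB1 (0.78), CNIH3 to SORCS3 (0.78) and SPON2 to PLD5 (0.76).

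The protein-coding genes next to each member in the RefSeq annotation of cynomolgus monkey, used for gene order only, were looked up among the genes of the table. SCG5, next to GREM1, averaged 186 RPM in PGCLCs, 157.1 RPM in PGC-like cells, 56.7 RPM in other POU5F1-high cells and 3.30 RPM in POU5F1-low cells. GREM1 averaged 1.298 and 0.114 RPM in those last classes. The SCG5 mean thus lay well above that of GREM1 in other POU5F1-high cells, while both were low in POU5F1-low cells. SCG5 and GREM1 were not compared cell by cell. None of the other 10 flanking genes tested was called in either comparison of PGC-like cells (limma, adjusted p 0.0541 or more).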

How the data were processed

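SC3-seq libraries of 605 single cells were deposited by the authors as 1 table of RPM values for 26018 genes. Among the tools listed in the submitters' processing notes are Cufflinks 2.2.0, TopHat 1.4.1 and the trimmer cutadapt 1.3. The deposited RPM values of 604 cells were whole multiples of 1 read (95.69% of the values above 0 within 0.1 read), which gave each cell's depth. RPM of a 3-prime method is not divided by gene length. Doublets were not called.

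The 9 members and all gene lists were chosen with earlier results of these data known. Groups came from the labels. Embryo classes came from the POU5F1, SOX17 and TFAP2C gates, and clusters from scanpy 1.11.5 and leidenalg 0.10.2 without the members. Class means by day were log2 transformed with a pseudocount of 1 and tested with limma 3.58.1 (R 4.3.3, empirical Bayes with trend) on genes at 10 RPM or more in 2 or more units, with Benjamini-Hochberg adjusted p under 0.05 as a call. Cells of a day may come from 1 embryo, so the day was the unit. In the comparisons of PGC-like cells, with day as a block, p-values measure how the differences between classes spread over days. In the comparison across implantation, which has no block, they measure the spread between days. The day block pairs class means of 1 embryonic day. Named genes were the members, the 3 genes most like each, list genes called with the largest changes, and flanking genes, the last chosen after values were seen. The genes most like UCP2 are not reported here. The gates, filter, pseudocount, scaling, cell minimum, block and single days were varied. Among alternatives added after seeing the data, edgeR 4.0.16 was run on the recovered reads, rounded to whole counts, of the authors' table. The tests were also run on simulated data with the same normal noise for each gene, unlike these sparse class means. That run does not measure how firm the calls here are. Intervals and zero shares cover counting only.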

Additional observations from a re-analysis of the deposited data

Results flagged for a closer look

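In 62 groups of 4 to 10 cells or days, each gene's highest and lowest values were compared with the rest by Dixon's test, and 19 groups held a value far from the others. Chance marks about 1 in 20 groups, and levels of single cells are skewed, so these are given as values only. In PGCLCs the cells apart were NMU at 1013.89 RPM in GK15 and 682.65 RPM in aRB27, and UCP2 at 4082.92 RPM in aRB27. In ESCs of CMK9 they were GREM1 at 33.31 RPM and NMU at 33.73 RPM.

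In gonadal cells, HPGD at 549.77 RPM and TPH2 at 54.97 RPM stood apart at E36. At E50 these were HPGD at 40.11 RPM, PLCXD3 at 22.66 RPM and ADCYAP1 at 62.7 RPM, the last 2 in the same cell. SPON2 at 23.3 RPM stood apart at E51.

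Among embryo PGC-like cells of E13, single cells held TPH2 at 344.59 RPM, PLCXD3 at 218.1 RPM and GREM1 at 364.24 RPM. At E17 they held UCP2 at 356.94 RPM, PLCXD3 at 179.91 RPM in that same cell, NMU at 62.89 RPM and CNIH3 at 41.5 RPM. Of the days before implantation, E7 stood apart for HPGD in POU5F1-high cells, at a mean of 49.05 RPM.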

How the results depend on the processing

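Against other POU5F1-high cells limma called 6.05% of the genes tested, a share that few alternatives kept. It was 0.0295% with no filter, 12.5% with the mean of log2 values, 10.4% with quantile scaling, 1.45% with at least 5 cells a class, 1.3% and 15% with the looser and stricter gate, 9.63% with PRDM1 in the gate, 3.24% with 2 classes, 0.663% by edgeR and 0.0514% without the MS117 cells. Leaving out 1 day gave 0 to 1.79%, with 0 genes called without E13, where 1484 had an unadjusted p under 0.05. Against POU5F1-low cells, 13.6% became 0.884% with no filter, 5.65% by edgeR, 7.85% without the MS117 cells and 3.01 to 11.9% with 1 day left out. With the mean of log2 values the share of calls that were higher went from 48.1% to 58.2% against POU5F1-low cells, and from 48.2% to 37.0% after against before implantation.

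The deviations of class means of the same day correlated at 0.099 to 0.145 with other POU5F1-high cells and at 0.056 to 0.088 with POU5F1-low cells. Without the replicate block of day 5.2% and 11.7% were called, and among the members only HPGD against other POU5F1-high cells lost its call.

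Against other POU5F1-high cells, the call for TPH2 was lost in 4 of 17 alternatives, that for HPGD in 7 of 17 and that for GREM1 in 7 of 16. Against POU5F1-low cells these were 1 of 16, 3 of 16 and 0 of 15. NMU, not called in the main fit, was called in 3 of 17 alternatives against other POU5F1-high cells. Against POU5F1-low cells it was called in 3 of 16. Directions turned only for genes that had not been called. UCP2 against other POU5F1-high cells was 0.013 with 2 classes. Against POU5F1-low cells it was 0.12 with at least 5 cells, 0.21 with the looser gate, 0.13 without the MS117 cells and -0.55 to 0.12 with 1 day left out. PLCXD3 against other POU5F1-high cells was 0.041 with a pseudocount of 10, 0.35 without the MS117 cells and -0.81 to 0.96 with 1 day left out. Against POU5F1-low cells it was -0.064 with at least 5 cells, -1.94 with the stricter gate and -0.064 to 2.61 with 1 day left out. Apart from what fewer genes, days or cells bring, the cause was not tested. In the shallowest gonadal cell a level under 19.9 RPM cannot be told from 0.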
